A study of Homo sapiens with 8 samples.

Results

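The 8 genes described here encode the RNA-binding proteins LIN28A and LIN28B, the RNA-binding ubiquitin ligase TRIM71, the 3 IGF2 mRNA-binding proteins IGF2BP1, IGF2BP2 and IGF2BP3, and the chromatin proteins HMGA1 and HMGA2. They were chosen by name, as the LIN28 and TRIM71 genes together with classical targets of the let-7 microRNAs, and make up 8 of the 19775 genes that had a probe set with a single symbol. Each gene was read from its brightest probe set, and its other probe sets served as a check.

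Expression was measured on 8 Affymetrix U133 Plus 2.0 arrays, 2 for each of undifferentiated H1, H1 embryoid bodies (EB), undifferentiated H9 and H9 EB. H1 and H9 are established lines of human embryonic stem cells, so each line stands for a single derivation. Undifferentiated cells grew in mTeSR1. EB are floating clumps in which stem cells start to differentiate, and they formed over 3 days from Accutase-dissociated cells on ultra low attachment plates in hESGM lacking bFGF, with 10 µM of the compound Y-27632. Medium, attachment, dissociation and Y-27632, which the labels name only for EB, changed together with state, and their parts cannot be told apart. The arrays are labelled as biological replicates without naming their cultures, so p-values measure only the spread between these samples, and the number of arrays limits the precision.

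All 8 genes were well expressed: each brightest probe set read above its array's median on all 8 arrays. The values are linear MAS5 intensities, scaled by the authors to one trimmed mean, 500.1, on every array, with array medians of 68.7 to 86.0. Arrays of one group correlated at r = 0.991 to 0.992 across tested genes, which are not independent replicates. The undifferentiated stem cell markers summed to 82929 to 91504 on the undifferentiated arrays and to 53631 to 63483 on the EB arrays, with all 9 tested markers lower in the mean contrast and in H1. In H9, 6 of the 9 fell, GDF3 rose (0.28, adjusted p = 0.0325, limma), and SOX2 (-0.0050) and DNMT3B (0.033) did not pass; these 3 are named after their values were seen. Markers of endoderm summed to 988 to 1303 and 35389 to 55937, and markers of neuroectoderm and neural crest to 7160 to 8085 and 36136 to 37842, with all 9 and all 10 tested members higher in EB. Of the other lists, 4 of 6 tested mesoderm markers, 5 of 7 tested fibroblast markers and 1 of 3 tested blood markers rose, and 1, 2 and 1 fell. These marker counts are to be read against all tested genes, of which 35.4% rose and 33.1% fell in the mean contrast. Of all tested genes, 28.1% fell in H1, and 31.6% rose and 29% fell in H9. The part of these shifts in cell makeup in the results below was not tested, and in bulk RNA fewer cells of a type and less RNA per cell cannot be told apart.

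The arrays labelled H9 EB did not match undifferentiated H9 in every respect. CRYZ, which is dim in undifferentiated H9 (mean intensity 40.1) and bright in H1 (3839 undifferentiated and 4334 in EB), had a mean intensity of 1395 on them. Over 5 autosomal genes of this kind, the signal that these arrays added to that of undifferentiated H9 was 18.4% to 31.6% of what the H1 EB arrays added. Whether these arrays hold RNA of another line was not tested, and every H9 EB value and line difference is subject to that doubt. Values from these arrays are therefore given under their label, with the H1 change, whose size does not use them, beside them. In the main fit, the standard errors and adjusted p-values of the H1 change do use them, because all groups share an estimate of the spread. The H1 change has a limit of its own, since the undifferentiated lines differed in markers of differentiated cells. In limma, 5 of 7 fibroblast and 5 of 10 neuroectoderm and neural crest markers were lower in undifferentiated H9, and 0 and 2 were higher. Over all tested genes, 12.5% were lower and 13.7% higher. LUM, for example, had mean intensities of 891 in undifferentiated H1 and 79.2 in undifferentiated H9. The part of this in the results was not tested.

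LIN28 proteins bind the precursors of let-7 microRNAs and block their maturation, and TUT4 or TUT7 can then add uridines to the bound precursor, which DIS3L2 degrades. Mature let-7 represses mRNAs that pair with its seed, among them LIN28A, LIN28B, TRIM71, HMGA2 and the IGF2BP genes, so that LIN28 and let-7 oppose each other in stem cells and early embryos. TRIM71 represses the mRNAs of cell cycle inhibitors. HMGA1 and HMGA2 bend AT-rich DNA in open chromatin.

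Mature let-7 RNAs were not measured on these arrays. Their sequences are shown because the 8 genes are grouped by this family. The capitals mark bases 2 to 8, the seed, in RefSeq entries for GRCh38.p14. The 9 let-7 and miR-98 names share one seed and differ in the bases that follow it.
hsa-let-7a-5p: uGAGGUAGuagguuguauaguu
hsa-let-7b-5p: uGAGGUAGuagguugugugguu
hsa-let-7c-5p: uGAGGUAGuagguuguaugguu
hsa-let-7d-5p: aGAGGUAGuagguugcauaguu
hsa-let-7e-5p: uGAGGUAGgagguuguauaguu
hsa-let-7f-5p: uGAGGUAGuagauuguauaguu
hsa-let-7g-5p: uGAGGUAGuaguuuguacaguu
hsa-let-7i-5p: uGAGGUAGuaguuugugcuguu
hsa-miR-98-5p: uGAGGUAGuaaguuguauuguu

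In the hairpin precursors, the zinc knuckles of LIN28 recognise the bases GGAG in the terminal loop. Of the 12 let-7 and miR-98 hairpins in the RefSeq table, 9 held GGAG after the mature 5′ arm, and MIRLET7A3, MIRLET7B and MIR98 did not. GGAG occurred somewhere in 43.4% of all 1562 hairpins of that table, on the strand of the hairpin, so the letters alone are common. MIRLET7A2 and MIRLET7G, which hold the motif (capitals), and MIRLET7A3, which lacks it, are shown for comparison. They lie at chr11:122146522-122146593 on the minus strand, chr3:52268278-52268361 on the minus strand and chr22:46112749-46112822 on the plus strand. MIRLET7A2 is returned to below, since its host transcript MIR100HG was measured.
MIRLET7A2: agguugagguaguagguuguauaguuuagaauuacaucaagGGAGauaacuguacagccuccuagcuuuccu
MIRLET7G: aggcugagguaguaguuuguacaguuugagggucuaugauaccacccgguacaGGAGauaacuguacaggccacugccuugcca
MIRLET7A3: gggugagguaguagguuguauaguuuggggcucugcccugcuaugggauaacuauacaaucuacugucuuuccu

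After 3 days in EB, LIN28A, LIN28B, TRIM71, IGF2BP1, IGF2BP3 and HMGA1 were lower and IGF2BP2 and HMGA2 were higher than in undifferentiated cells. The EB levels ranged from 58.6% of the undifferentiated mean (HMGA1 in H9) to 145% (HMGA2 in H1). All 8 genes passed the test for the mean change over both lines, at an adjusted p under 0.05 in limma across 14056 tested genes. That count has to be read against the whole array, where 68.5% of tested genes passed, 33.1% as lower and 35.4% as higher. The median change was -0.34 over the 8 genes and 0.010 over all tested genes, both as log2(intensity + 16).

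**Figure D1:**
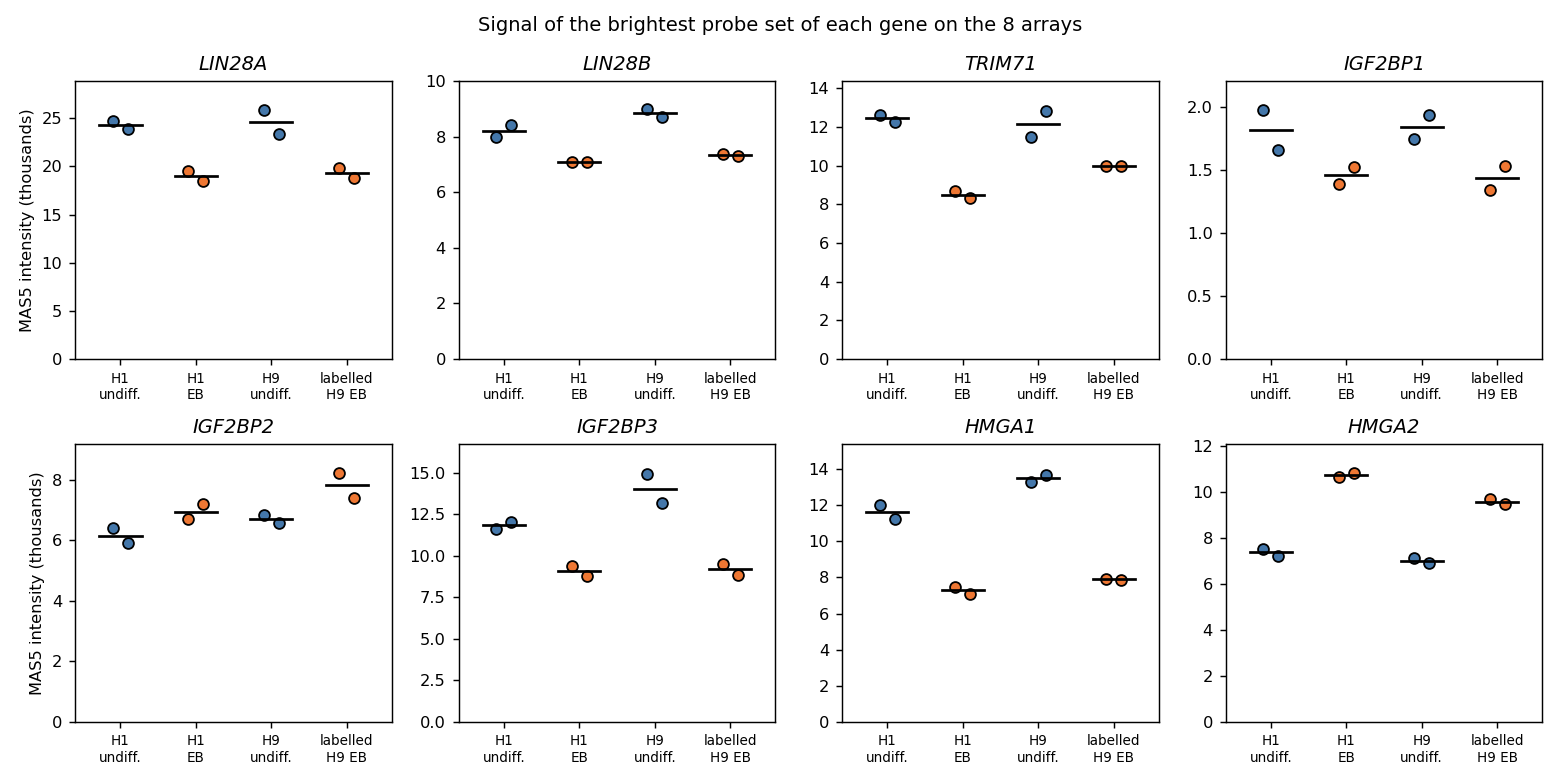
Intensity of the brightest probe set of each of the 8 genes on each array, by line and state, on a linear axis that starts at 0 and carries its unit; each point is 1 array (blue undifferentiated, orange EB) and each line the mean of 2 arrays. EB arrays lie below all undifferentiated arrays for 6 genes and above them for HMGA2, and the states overlap for IGF2BP2 when the lines are pooled.

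LIN28A, the form of LIN28 that sits mainly in the cytoplasm, was read by probe set 219823_at. Its intensities were 24708 and 23918 in undifferentiated H1, 19522 and 18493 in H1 EB, 25881 and 23373 in undifferentiated H9, and 19859 and 18778 on the arrays labelled H9 EB. The 4 EB arrays lay below the 4 undifferentiated arrays, and the levels in EB were still 78.2% (H1) and 78.4% (H9) of the undifferentiated ones. The change was -0.35 ± 0.040 (SE; adjusted p = 1.22e-05, limma). The same value within H1 alone was -0.36 (adjusted p = 2.64e-04) and within H9 -0.35 (adjusted p = 2.75e-04).

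LIN28B, the paralog that acts on let-7 precursors in the nucleus as well, was read by 229349_at. Its intensities were 7989 and 8431 in undifferentiated H1, 7078 and 7095 in H1 EB, 9004 and 8710 in undifferentiated H9, and 7392 and 7314 on the arrays labelled H9 EB. EB and undifferentiated arrays again did not overlap. The change, -0.24 ± 0.034 (SE; adjusted p = 7.54e-05, limma), was the smallest in size among the 6 genes that fell, with EB at 86.3% (H1) and 83.0% (H9) of undifferentiated cells. Within the lines it was -0.21 (H1, adjusted p = 0.00303) and -0.27 (H9, adjusted p = 5.88e-04).

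TRIM71, named LIN-41 in the worm, where it was found as a let-7 target, was read by 231310_at. Its intensities were 12640 and 12241 in undifferentiated H1 and 8679 and 8324 in H1 EB. In H9 they were 11471 and 12841 in undifferentiated cells and 9991 and 9955 on the arrays labelled H9 EB. EB arrays were lower in both lines, and the H1 EB arrays were the lowest of all. TRIM71 changed by -0.42 ± 0.041 (SE; adjusted p = 3.46e-06, limma) on average, to 68.3% in H1 and 82.0% in H9. The changes within the lines were -0.55 ± 0.057 (H1, adjusted p = 1.12e-05) and -0.28 (H9, adjusted p = 0.00131).

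The 3 IGF2BP genes, whose proteins bind mRNAs in the cytoplasm and affect their stability, translation and localization, did not move together. IGF2BP1 (227377_at) had intensities of 1975 and 1656 in undifferentiated H1, 1390 and 1526 in H1 EB, 1744 and 1940 in undifferentiated H9, and 1342 and 1533 on the arrays labelled H9 EB. The states did not overlap, although the spread within groups was wide for the size of the difference. IGF2BP1 changed by -0.33 ± 0.071 (SE; adjusted p = 0.00164, limma), which left 80.3% (H1) and 78.0% (H9) of the undifferentiated level. In H1 alone the change was -0.31 ± 0.10 (adjusted p = 0.0220), and it was no longer called without undifferentiated H1 replicate 1 (-0.18, adjusted p = 0.190) and equally without replicate 1 of H1 EB (-0.24, adjusted p = 0.139). In H9 the change of -0.36 (adjusted p = 0.0105) was lost without undifferentiated H9 replicate 2 (-0.28, adjusted p = 0.0787) and equally without replicate 1 of H9 EB (-0.26, adjusted p = 0.0937).

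IGF2BP3 (203820_s_at) had intensities of 11623 and 12063 in undifferentiated H1, 9386 and 8766 in H1 EB, 14932 and 13169 in undifferentiated H9, and 9524 and 8839 on the arrays labelled H9 EB. On this probe set its EB levels were close to each other in the 2 lines and lower than all undifferentiated arrays. The change was -0.50 ± 0.047 (SE; adjusted p = 2.82e-06, limma), with EB at 76.6% (H1) and 65.3% (H9). Within H1 it was -0.38 (adjusted p = 4.92e-04) and within H9 -0.61 (adjusted p = 1.39e-05).

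IGF2BP2 (218847_at), which is also expressed in many adult tissues, went the other way. Its intensities were 6412 and 5902 in undifferentiated H1, 6694 and 7192 in H1 EB, 6840 and 6591 in undifferentiated H9, and 8247 and 7390 on the arrays labelled H9 EB. EB arrays were higher within each line, but the lowest H1 EB array lay below the highest undifferentiated H9 array. The mean change was 0.20 ± 0.047 (SE; adjusted p = 0.00331, limma), with EB at 113% (H1) and 116% (H9) of undifferentiated cells. This rise depended on the processing: with each array centred on its median, the change was -0.0022 (adjusted p = 0.971), and with both probe sets averaged it was 0.17 and not called (adjusted p = 0.0861). Within the lines it was 0.17 ± 0.067 (H1, adjusted p = 0.0444) and 0.22 (H9, adjusted p = 0.0153), and each value lost its call when one of several single arrays was left out. In H1 these were undifferentiated replicate 2 (0.11, adjusted p = 0.252) and EB replicate 2 (0.12, adjusted p = 0.253). In H9 they were undifferentiated replicate 2 (0.19, adjusted p = 0.0764) and EB replicate 1 (0.14, adjusted p = 0.156).

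The 2 HMGA genes changed in opposite directions. HMGA1 (206074_s_at) had intensities of 12038 and 11218 in undifferentiated H1, 7458 and 7108 in H1 EB, 13314 and 13686 in undifferentiated H9, and 7930 and 7880 on the arrays labelled H9 EB. The highest EB array was far below the lowest undifferentiated array. HMGA1 had the largest change of the 8 genes, -0.72 ± 0.036 (SE; adjusted p = 1.51e-08, limma), to 62.6% in H1 and 58.6% in H9. The line values were -0.67 (H1, adjusted p = 9.22e-07) and -0.77 (H9, adjusted p = 3.00e-07).

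HMGA2, one of the best studied direct targets of let-7, was read by 208025_s_at at 7537 and 7205 in undifferentiated H1 and at 10634 and 10805 in H1 EB. In H9 the values were 7129 and 6898 in undifferentiated cells and 9688 and 9466 on the arrays labelled H9 EB. All EB arrays were above all undifferentiated arrays. HMGA2 rose by 0.49 ± 0.034 (SE; adjusted p = 1.87e-07, limma), to 145% in H1 and 137% in H9 of the undifferentiated level, and the line values were 0.54 (H1, adjusted p = 3.07e-06) and 0.45 (H9, adjusted p = 1.11e-05).

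**Figure D2:**
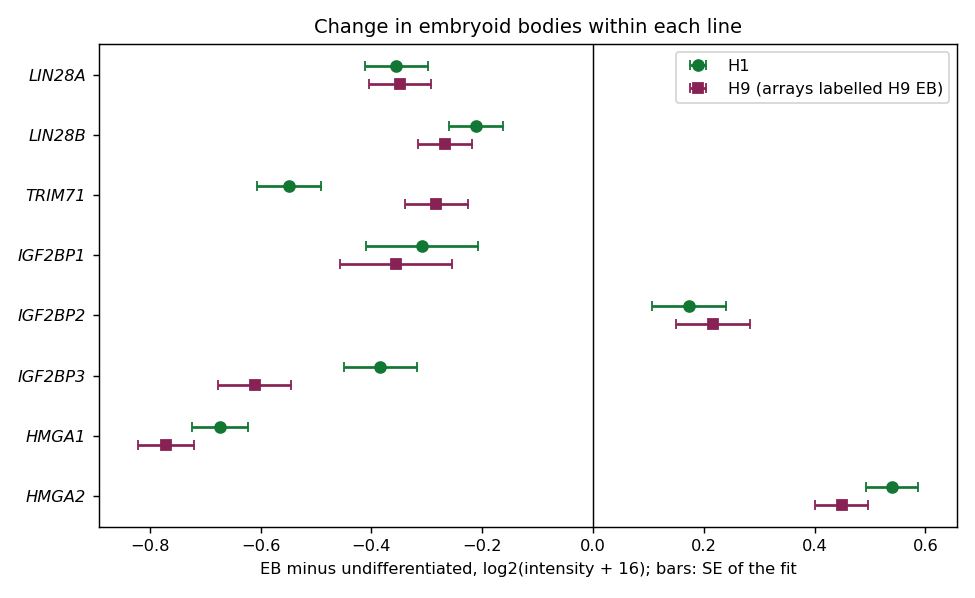
Change of each of the 8 genes in EB against undifferentiated cells of the same line on the log2(intensity + 16) scale; points are the fitted change from 2 arrays per group, bars its standard error, circles H1 and squares H9. HMGA1 at -0.67 and -0.77 and HMGA2 at 0.54 and 0.45 stand at the ends, and TRIM71 is further from 0 in H1 (-0.55) than in H9 (-0.28).

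Within each line, all 8 genes passed the test with the same directions, where 57.7% of tested genes passed in H1 and 60.6% in H9. By direction, the share of tested genes was 29.6% higher and 28.1% lower in H1, and 31.6% higher and 29% lower in H9. For 7 of the 8 genes all EB arrays lay on one side of all undifferentiated arrays, 6 below and 1 above, while 51.6% of tested genes separated in this way, 24.5% with EB below and 27.1% with EB above. Leaving out both arrays labelled H9 EB left the H1 contrast, in which the 8 changes were those given above for H1 and all 8 were called.

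The lines were then compared directly. The change in EB differed between H9 and H1 for 1 of the 8 genes, TRIM71, against 22.7% of tested genes (11.5% higher and 11.2% lower in H9). The TRIM71 change was less negative in H9 by 0.27 ± 0.081 (SE; 95% interval 0.087 to 0.44; adjusted p = 0.0375 for the interaction in limma). This call was lost in 11 of 18 alternative analyses, among them the fits without any one array except undifferentiated H9 replicate 2, with adjusted p-values of 0.00776 to 0.145 over all 18. For the other 7 genes the difference lay between -0.23 and 0.044 with interval bounds of -0.44 to 0.27 and adjusted p-values of 0.109 to 0.966. The LIN28A difference, 0.0065, was -0.18 and called after quantile normalization (adjusted p = 0.0497). The IGF2BP3 difference, -0.23, passed when arrays were centred on their medians (-0.31, adjusted p = 0.0360) and without undifferentiated H9 replicate 2 (-0.32, adjusted p = 0.0267).

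In undifferentiated cells, the brightest probe sets of IGF2BP3 and HMGA1 were higher in H9 than in H1, by 0.24 ± 0.067 (SE; adjusted p = 0.0208, limma) and 0.22 ± 0.051 (SE; adjusted p = 0.0103). These 2 of 8 compare with 26.2% of tested genes, 13.7% higher and 12.5% lower in H9. The second HMGA1 probe set, 210457_x_at, went the other way (-0.59, adjusted p = 0.0355, limma over 25802 probe sets), so the HMGA1 direction depended on the probe set. For IGF2BP3, 203819_s_at was also higher in H9 (0.18, adjusted p = 0.0364), and 216493_s_at was not called (-0.050, adjusted p = 0.840). The IGF2BP3 call was lost without either undifferentiated H1 replicate (adjusted p = 0.105 and 0.0553) or undifferentiated H9 replicate 1 (adjusted p = 0.145), and the HMGA1 call without undifferentiated H1 replicate 2 (adjusted p = 0.0731). In EB, TRIM71 was higher on the arrays labelled H9 EB than in H1 EB, by 0.23 ± 0.057 (SE; adjusted p = 0.0223), and HMGA2 was lower, with a difference of -0.16 ± 0.048 (SE; adjusted p = 0.0428), where 15.3% of tested genes differed, 8% higher and 7.31% lower. Without any one of the 4 EB arrays neither passed, with adjusted p-values of 0.0760 to 0.204. For LIN28A, LIN28B, IGF2BP1 and IGF2BP2, the difference between the lines within a state did not pass on the brightest probe set in either state. Under single alternatives 3 of them did: LIN28B in undifferentiated cells with arrays centred on their medians (0.18, adjusted p = 0.0260), IGF2BP1 in undifferentiated cells with probe sets averaged (-0.41, adjusted p = 0.0180) and LIN28A in EB after quantile normalization (-0.14, adjusted p = 0.0483). A further IGF2BP1 probe set, 223689_at, was lower in undifferentiated H9 than in H1 (-0.99, adjusted p = 2.27e-04, limma over 25802 probe sets).

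The remaining probe sets of the 8 genes were examined next, since the brightest one may not represent every transcript. The array carries 23 probe sets for the 8 genes. LIN28A, LIN28B and TRIM71 have 1 each, and the other 5 genes have 15 further ones, of which 8 were bright enough to test. Of these 8, 6 were called for the mean change, each in the direction of the brightest probe set, where 63.4% of 25802 tested probe sets were called. The difference between the lines was called for 4 of the 8, against 18% of tested probe sets.

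The fall of IGF2BP3 was larger on 203819_s_at (-0.65) and on 216493_s_at (-1.05) than on its brightest probe set. The intensities of 216493_s_at were 1280 and 1544 in undifferentiated H1, 955 and 814 in H1 EB, 1557 and 1183 in undifferentiated H9, and 463 and 530 on the arrays labelled H9 EB. EB arrays were lower in both lines and lowest in H9. On both probe sets the fall was greater in H9, with differences of -0.37 (adjusted p = 0.00831) and -0.76 (adjusted p = 0.0267, limma over 25802 probe sets). Unlike the brightest probe set, both also read lower on the arrays labelled H9 EB than in H1 EB (-0.19, adjusted p = 0.0440, and -0.81, adjusted p = 0.00673). A dim probe set, 1569033_at, changed by -0.24 and was not called (adjusted p = 0.398).

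HMGA1 fell on its second probe set as well, by 1.48 on the log2 scale (210457_x_at, a type that can also bind related transcripts). For IGF2BP1, 241574_s_at fell by 0.42 (adjusted p = 0.00130) and 223689_at by 0.25 (adjusted p = 0.0165). The second of these had intensities of 844 and 695 in undifferentiated H1, 506 and 489 in H1 EB, 373 and 384 in undifferentiated H9, and 409 and 404 on the arrays labelled H9 EB. It was thus lower in EB of H1 (-0.61), while its value in H9 was 0.099 (adjusted p = 0.477), a difference between the lines of 0.71 (adjusted p = 0.0134). IGF2BP2 had a dim second probe set, 223963_s_at, which changed by 0.14 and was not called (adjusted p = 0.444).

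HMGA2 had 9 probe sets, and 7 of them were too dim to test. The other one, 1567224_at, had intensities of 78.3 and 92.3 in undifferentiated H1, 88.0 and 93.0 in H1 EB, 51.7 and 44.0 in undifferentiated H9, and 157 and 154 on the arrays labelled H9 EB. It was near the array medians in H1 in both states and above them only on the arrays labelled H9 EB among the H9 arrays. Its mean change was 0.75 (adjusted p = 0.00123), made of 0.075 in H1 (adjusted p = 0.790) and 1.43 in H9, with a difference of 1.35 (adjusted p = 0.0128). The rise of HMGA2 in H1 therefore rests on a single probe set, and averaging all 9 gave a mean change of 0.13 (adjusted p = 0.357).

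**Figure D3:**
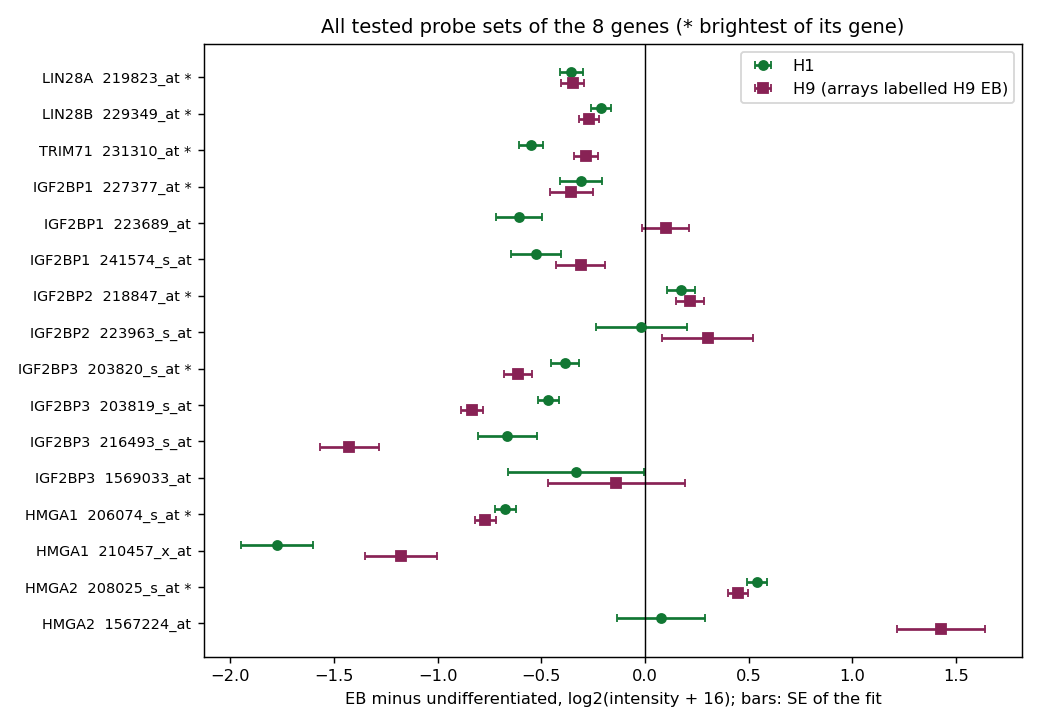
Change in EB within each line for the tested probe sets of the 8 genes on the log2(intensity + 16) scale; an asterisk marks the brightest probe set of its gene, bars are standard errors of the fit, circles are H1 and squares H9. The lines part most on 1567224_at of HMGA2 (0.075 and 1.43), and 223689_at of IGF2BP1 is lower only in H1 (-0.61 against 0.099).

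How the arrays were scaled mattered for genes with changes of this size. Centring each array on its median moved the median change of all tested genes from 0.010 to -0.19, and the split of calls from 4973 higher and 4659 lower to 3475 higher and 6576 lower. The changes of the 6 genes that fell then became -0.55 for LIN28A, -0.44 for LIN28B, -0.61 for TRIM71, -0.53 for IGF2BP1, -0.69 for IGF2BP3 and -0.92 for HMGA1. HMGA2 stayed higher at 0.30, and IGF2BP2 was at -0.0022. Centring shifts every gene of an array alike, so it leaves the distances between genes as they were.

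Quantile normalization moved 7 of the 8 values upwards and IGF2BP1 slightly downwards, while the median change of all tested genes went to -0.055. LIN28A then changed by -0.17 (adjusted p = 4.86e-04), LIN28B by -0.079 (adjusted p = 0.0278), TRIM71 by -0.24, IGF2BP1 by -0.35, IGF2BP3 by -0.33 and HMGA1 by -0.55, all called in limma. IGF2BP2 rose by 0.34 and HMGA2 by 0.66. Within single lines, quantile normalization ended the calls of LIN28A in H1 (-0.075, adjusted p = 0.156), of LIN28B in H1 (-0.072, adjusted p = 0.148) and H9 (-0.086, adjusted p = 0.0831), and of TRIM71 in H9 (-0.11, adjusted p = 0.145).

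**Figure D4:**
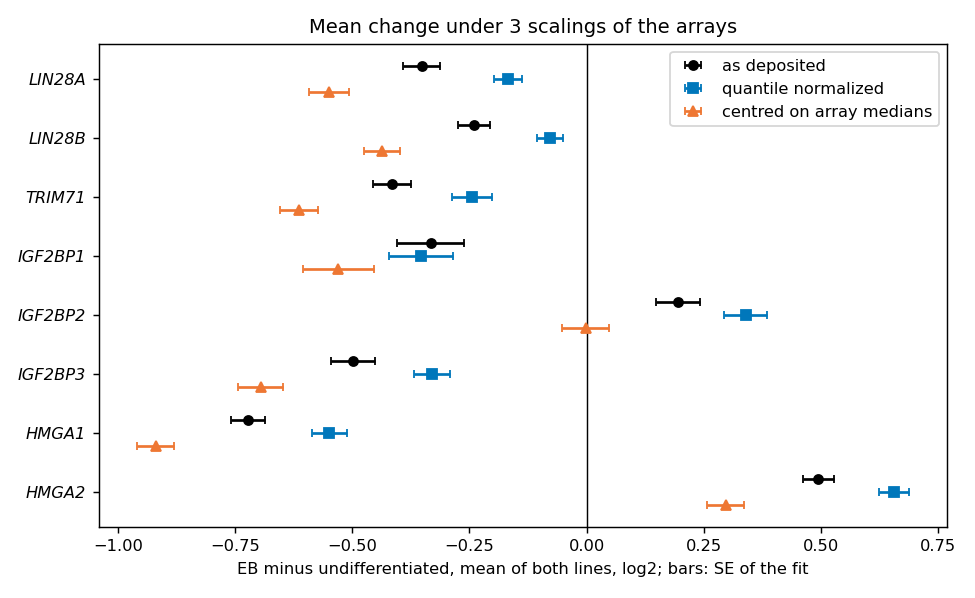
Mean change of the 8 genes over both lines under the deposited scaling, quantile normalization and centring of each array on its median, in log2 units with standard errors of the fit. The 6 genes that fell stay below 0 and HMGA2 stays above 0 under all 3, while IGF2BP2 moves from 0.34 to -0.0022.

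The likeness of the 8 profiles was described by the Euclidean distance between log2 values over the 8 arrays, after subtracting each gene's mean. LIN28A and LIN28B were the closest pair (0.23), and HMGA1 and HMGA2 were the farthest apart (1.77). IGF2BP2 and HMGA2, the genes that rose, were 0.58 apart. Among all tested genes, the 3 nearest to LIN28A were HMGN4 (0.092), ERI3 and RAN, and those nearest to LIN28B were CSE1L (0.076), RNF181 and PRDX2. TRIM71 lay nearest to ZMYND8 (0.087), MCRIP2 and SORL1, and ZMYND8 also fell more in H1 (-0.57) than in H9 (-0.22). The nearest genes were RITA1, MTFMT and TAB1 for IGF2BP1, NIT2, RNF130 and HTRA2 for IGF2BP2, and CAPZB, ELOVL5 and SF3A2 for IGF2BP3. They were TDRKH, PLAAT1 and PHLDA2 for HMGA1, and TRAM1 (0.070), SPRED2 and ABHD5 for HMGA2. The median distance from a member to all tested genes was 0.81 to 1.24, and the points of each profile share the same 8 arrays.

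The genes that make, block or use let-7 were followed as a list of 17, of which 16 were tested and DGCR8 was not analysed here. In the mean EB contrast, 5 rose, 5 fell and 6 did not pass, with a median change of 0.0023 against 0.010 for all tested genes. This count, like those of the lists that follow, is to be read against the 68.5% of all tested genes that passed, 35.4% as higher and 33.1% as lower. The exonuclease DIS3L2, which degrades uridylated let-7 precursors, rose by 0.79 ± 0.14 (SE; adjusted p = 3.17e-04, limma), and the uridylyltransferase TUT4, which LIN28A recruits to them, by 0.49 ± 0.051. Its paralog TUT7 changed by 0.096 and did not pass (adjusted p = 0.198), with values of -0.10 and -0.037 after centring and quantile normalization. AGO4 rose by 0.45 ± 0.070 and the exporter of hairpins XPO5 by 0.26. In H1 alone the changes were 0.70 for DIS3L2, 0.46 for TUT4, 0.025 for TUT7 and 0.65 for AGO4. The XPO5 call was lost without both arrays labelled H9 EB (0.17, adjusted p = 0.159), when its probe sets were averaged (-0.0016) and with arrays centred on their medians (0.064).

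AGO2, the Argonaute that can cut its targets, had intensities of 768 and 645 in undifferentiated H1, 276 and 250 in H1 EB, 578 and 834 in undifferentiated H9, and 245 and 301 on the arrays labelled H9 EB. All EB arrays were below all undifferentiated arrays. Its fall of 1.34 ± 0.12 on the log2 scale (SE; adjusted p = 2.72e-06, limma) was the largest of the list, with -1.37 in H1 alone. KHSRP, which promotes let-7 processing, fell by 0.23 (adjusted p = 7.16e-04), and lost its call without both arrays labelled H9 EB (-0.13, adjusted p = 0.116). TARBP2, a partner of Dicer, fell by 0.23 (adjusted p = 0.00335; -0.092 with its probe sets averaged, adjusted p = 0.310) and TNRC6C, a scaffold of silencing, by 0.24 (adjusted p = 0.0430, lost in 8 of 19 alternatives). In H1 alone the values of these were -0.33 (adjusted p = 0.00371) and -0.33 (adjusted p = 0.0512). DROSHA, which cuts the primary transcripts, changed by -0.035 (adjusted p = 0.457), by 0.078 after quantile normalization and by -0.23 with arrays centred on their medians (adjusted p = 2.85e-04), so no direction could be given for it. DICER1, which cuts the hairpins, changed by 0.19 (adjusted p = 0.0478) with values of 0.47 in H1 and -0.10 in H9 and a call that held in 6 of 19 alternatives. With arrays centred on their medians it was at -0.012 (adjusted p = 0.886).

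Of 30 other let-7 targets, 27 were tested, and 10 rose, 10 fell and 7 did not pass, a share near that of all tested genes, with a median change of 0.042. PRTG, a cell surface receptor of early embryos, had intensities of 1609 and 1233 in undifferentiated H1, 12980 and 11892 in H1 EB, 1271 and 1614 in undifferentiated H9, and 16802 and 16237 on the arrays labelled H9 EB. The states were separated by a wide gap, and the rise was 3.32 ± 0.093 (SE; adjusted p = 2.05e-09, limma), with 3.13 in H1. CDK6, a kinase of the G1 phase, rose by 1.41 ± 0.055, with 0.91 in H1 and 1.90 in H9. With its probe sets averaged, CDK6 changed by 0.19 and was not called (adjusted p = 0.172). FIGN rose by 0.72, the receptor TGFBR1 by 0.69 and the G1 cyclin CCND1 by 0.68, with 0.85, 0.57 and 0.71 in H1.

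MYC had intensities of 2811 and 2718 in undifferentiated H1, 891 and 956 in H1 EB, 2260 and 2296 in undifferentiated H9, and 816 and 899 on the arrays labelled H9 EB. It was lower in every EB array, with a fall of 1.48 ± 0.051 on the log2 scale (SE; adjusted p = 7.90e-10, limma) and -1.57 in H1. The nuclear receptor NR6A1 fell by 0.81, the insulin receptor INSR by 0.78 and ARID3B by 0.72. In H1 these were -0.85, -1.14 and -0.79, and INSR was at -0.42 in H9. MYCN changed by 0.045 (adjusted p = 0.288), by 0.20 after quantile normalization (adjusted p = 4.65e-04) and by -0.15 with arrays centred on their medians (adjusted p = 0.00267), so no direction could be given for it.

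Some let-7 genes lie inside longer transcripts that the array reads. MIR100HG is the host transcript of MIRLET7A2, whose hairpin is printed above, and of MIR125B1. Its probe set 225381_at had intensities of 151 and 205 in undifferentiated H1, 1139 and 1077 in H1 EB, 90.8 and 67.0 in undifferentiated H9, and 1207 and 1314 on the arrays labelled H9 EB. EB arrays were high in both lines, and undifferentiated H9 was the lowest group. The rise was 3.15 ± 0.11 (SE; adjusted p = 1.05e-09, limma), with 2.55 in H1 and 3.76 in H9. A second probe set of MIR100HG was below the median on all 8 arrays. Other host transcripts could not be followed: MIR99AHG (3 probe sets, each above the median on at most 1 array) and MIRLET7BHG were too dim to test, and MIRLET7A1HG and MIRLET7DHG were not analysed here. The mature sequence from MIR125B1 has another seed, shown in capitals, and was not measured.
hsa-miR-125b-5p: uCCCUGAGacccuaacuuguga

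The mRNAs known as targets of TRIM71, or of the stem cell microRNAs of the miR-302 family with which it acts, were a list of 6. Of the 5 tested, 2 rose, 2 fell and 1 did not pass. CDKN1A, the CDK inhibitor p21, rose by 0.58 ± 0.085 (SE; adjusted p = 9.85e-05, limma), with 0.85 in H1 and 0.31 in H9. RBL2, a member of the retinoblastoma family, rose by 0.31 on average, but was called in opposite directions in the lines. Its change was 0.88 in H1 (adjusted p = 5.74e-06, limma) and -0.25 in H9 (adjusted p = 0.0218). With arrays centred on their medians the mean change of RBL2 was not called (0.11, adjusted p = 0.119). Averaging its probe sets gave 0.038, which was not called (adjusted p = 0.860). EGR1 fell by 0.49 and the Hippo kinase LATS2 by 0.37, with -0.48 and -0.27 in H1.

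Of 8 mRNAs that IGF2BP proteins bind, 5 were tested, and 3 rose and 2 fell. The adhesion receptor CD44 rose by 0.66 and the ubiquitin ligase subunit BTRC by 0.45, though the mean of the BTRC probe sets was -0.017 (adjusted p = 0.900). CTNNB1, which encodes β-catenin, rose by 0.15, with 0.0018 in H1 and 0.29 in H9, so the call was lost without both arrays labelled H9 EB (adjusted p = 0.981), and its direction turned with arrays centred on their medians (-0.051). The proliferation marker MKI67 fell by 0.73 (-0.10 with its probe sets averaged, adjusted p = 0.336) and ACTB, which encodes β-actin, by 0.20 (-0.048 after quantile normalization, adjusted p = 0.245). In H1 alone the values were 0.75 for CD44, 0.46 for BTRC, -0.87 for MKI67 and -0.27 for ACTB. IGF2 and H19, after which this interaction is best known, were not analysed here.

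On the IGF and PI3K axis, which LIN28 and IGF2BP proteins are known to touch, 9 of 12 genes were tested, and 3 rose, 3 fell and 3 did not pass. The regulatory subunit PIK3R1 rose by 0.64, the clearance receptor IGF2R by 0.56 and the ligand IGF1 by 0.77 from a low level. All 3 lost their calls without both arrays labelled H9 EB, at 0.27, 0.051 and 0.46 (adjusted p = 0.122, 0.748 and 0.193). Besides INSR, the adaptors IRS2 and IRS1 fell by 0.29 and 0.22. The IRS2 value was -0.33 in H1. The IRS1 value was 0.023 in H1 and -0.47 in H9, and 0.20 over both lines with its probe sets averaged (adjusted p = 0.0164).

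The HMGB and HMGN genes encode other abundant chromatin proteins and served as a comparison for HMGA1 and HMGA2. All 8 were tested, and 5 fell, 1 rose and 2 did not pass, with a median of -0.14. HMGN5 fell by 0.38, HMGN4 by 0.31, HMGN1 by 0.23 and HMGB1 by 0.17, while HMGN2 rose by 0.12. In H1 the values were -0.37, -0.31, -0.18 and -0.32, and 0.029 for HMGN2, and HMGB1 was at -0.012 in H9. None of the named members changed as much as HMGA1 (-0.72) or rose as much as HMGA2 (0.49). The small values were sensitive to the processing: HMGN2 was at -0.078 with arrays centred on their medians and 0.029 without both arrays labelled H9 EB (adjusted p = 0.632), HMGN5 at -0.076 with its probe sets averaged (adjusted p = 0.407), and HMGN1 at -0.021 and HMGB1 at 0.023 after quantile normalization.

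**Figure D5:**
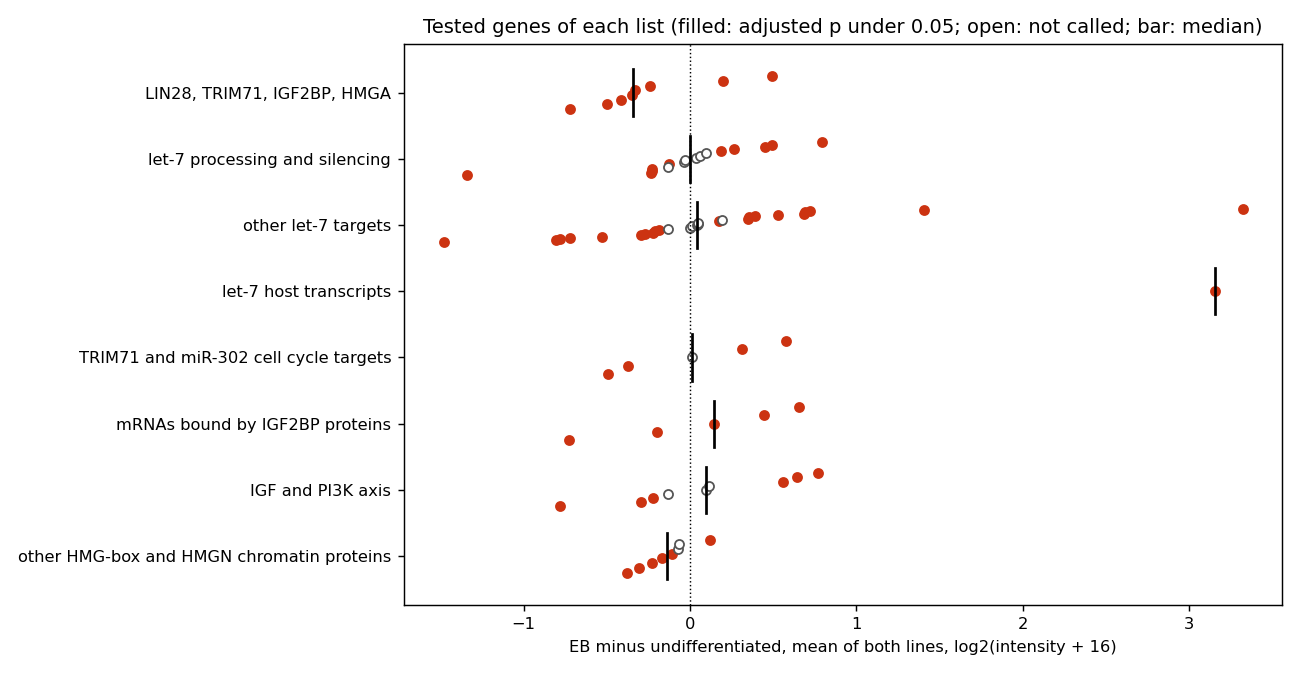
Mean change in EB over both lines for the tested genes of each list on the log2(intensity + 16) scale; filled points passed an adjusted p under 0.05, open points did not, and black bars are list medians. The 8 genes have a median of -0.34, the 16 let-7 processing genes of 0.0023, and PRTG (3.32) and MIR100HG (3.15) lie furthest to the right.

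Promoter sequence was read for 5 of the 8 genes, with 8 annotated starts in the RefSeq table for GRCh38.p14. The 250 bases before each start were searched on both strands for the E-box CACGTG, to which MYC with MAX can bind, because MYC fell in EB, and for the octamer ATGCAAAT (read on the other strand as ATTTGCAT), the motif of POU factors such as the stem cell regulator OCT4. The E-box was found for 2 of the 5 genes, LIN28B and IGF2BP3, and in 6.34% of 35116 promoters. The octamer was found for 1 of the 5, HMGA1, and in 1.63% of promoters. The gene counts take a match at any start of a gene, while the percentages are of single starts, so they are not directly comparable. The windows of 40 bases around each match are shown with the motif in capitals, and each gene's strand is the one printed. A match is a run of letters, and binding was not measured here. The LIN28B window is chr6:104957043-104957082 (plus strand, motif 47 bases before the start). Those of IGF2BP3 are chr7:23470643-23470682 and chr7:23470615-23470654 (minus strand, 174 and 146 bases before the start), and that of HMGA1 is chr6:34236785-34236824 (plus strand, 72 bases before the start).
LIN28B: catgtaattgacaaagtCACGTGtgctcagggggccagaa
IGF2BP3, upstream match: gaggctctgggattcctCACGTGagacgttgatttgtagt
IGF2BP3, downstream match: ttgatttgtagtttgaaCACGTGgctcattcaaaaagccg
HMGA1: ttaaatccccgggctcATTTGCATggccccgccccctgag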

How the data were processed

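Total RNA of 8 samples was labelled as biotinylated cRNA and hybridised to 1 array each. The authors deposited linear intensities, for which the submitters' processing notes name MAS5 without a version, and every array has a trimmed mean of 500.1. Of 54675 probe sets, 62 are controls, 41091 have 1 gene symbol in the platform annotation, 1801 several and 11721 none, and only the first were used for named genes. Entrez identifiers of 41037 probe sets matched RefSeq, which changed 0 symbols.

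For each gene the probe set brightest on average in log2 units stood for it, and was tested when above the array's median on at least 2 arrays (14056 of 19775 genes). Values were taken as log2(intensity + 16), which understates changes of low genes. A model with a mean for each of the 4 groups was fitted to all 8 arrays with limma 3.58.1 (R 4.3.3; eBayes with trend and robust settings), with Benjamini-Hochberg adjustment over all tested genes and calls at an adjusted p under 0.05. Probe sets were also fitted one by one. The script was tested on simulated data. From each list the text names the up to 4 largest called changes per direction, together with DROSHA, DICER1, TUT7, MYCN and CCND1, and the 3 nearest profiles per member. The members, lists, rules and alternatives were chosen with earlier results of these data known. Alternatives were quantile normalization, centring on array medians, added values of 1 and 64, other filters, the mean of all probe sets, eBayes without trend and robust, a replicate block, and leaving out single arrays or both arrays labelled H9 EB. Replicate numbers are shared between groups. The deviations of same-numbered arrays correlated at -0.046 to 0.054 across genes, so no broad shared deviation was seen, and no pairing was used in the main fit. With 2 arrays a group this cannot tell whether same-numbered samples came from one culture, which the labels do not state.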

Additional observations from a re-analysis of the deposited data

Results flagged for a closer look

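Differences of the EB change between the lines, H9 minus H1, were tested with the interaction term in limma. Arrays labelled H9 EB enter every one of them, as do the undifferentiated arrays of both lines. TRIM71 differed by 0.27, the only one of the 8 genes that did on its brightest probe set. Among further probe sets of these genes, 223689_at of IGF2BP1 differed by 0.71, 1567224_at of HMGA2 by 1.35, and 203819_s_at and 216493_s_at of IGF2BP3 by -0.37 and -0.76.

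Of the 41 named pathway genes, 11 differed, against 22.7% of all tested genes, with adjusted p-values of 1.51e-04 (RBL2) to 0.0439 (CDKN1A) in limma. The change was more positive in H9 for MIR100HG (1.21), IGF2R (1.02), CDK6 (0.99), PIK3R1 (0.74), INSR (0.73), HMGB1 (0.31) and CTNNB1 (0.29). It was more negative in H9 for RBL2 (-1.13), DICER1 (-0.57), CDKN1A (-0.54) and IRS1 (-0.50). The part of the labelling of the H9 EB arrays in these differences was not tested, and their dependence on the processing was not examined for the pathway genes. In undifferentiated cells, H9 minus H1 was -1.02 for CDK6, -1.03 for MIR100HG and 0.49 for DICER1, all called in limma. In EB the values were -0.021, 0.18 and -0.081, none called. INSR showed the opposite pattern, with -0.19 in undifferentiated cells (not called) and 0.54 in EB (adjusted p = 0.00374, limma). These genes are examples named after their values were seen.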

How the results depend on the processing

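Averaged over the lines, all 8 genes stayed called without any one array, as did 7 to 8 within H1 and 6 to 8 within H9. The LIN28A, LIN28B, TRIM71, IGF2BP1, IGF2BP3 and HMGA1 changes kept their direction and call in all 19 alternatives of the mean contrast. With all probe sets averaged, 6 of 8 were called within H1 (47.5% of all tested genes) and 5 of 8 within H9 (50.7%). Plain eBayes (without trend and robust) left 6 within H1 (54.4%, IGF2BP1 and IGF2BP2 lost) and 7 within H9 (57.9%, IGF2BP2 lost). The line counts that follow are to be read against the share of all tested genes called. With plain eBayes it was 14.3% for the difference between lines, 20% for undifferentiated lines and 6.36% for EB lines. In the main fit these were 22.7%, 26.2% and 15.3%. For the difference between lines, where 1 gene was called, quantile normalization gave 2, and no filter, averaged probe sets and eBayes without trend and robust gave 0; single arrays left out gave 0 to 2. For undifferentiated lines (2 called), averaged probe sets gave 1 (IGF2BP1, lower in H9), centring 3, plain eBayes 0 and single arrays left out 0 to 2. For EB lines (2 called), quantile normalization gave 3, and centring, no filter, averaged probe sets, probe sets one by one and the replicate block gave 1 each (HMGA2 with the block at adjusted p = 0.0533), plain eBayes 0, and single arrays left out 0 to 2; the block changed no other call of the 8 genes.

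Signs turned as follows; the cause was not tested. With centred arrays, IGF2BP2 was at -0.0022 (H9 -0.022), CTNNB1 -0.051, HMGN2 -0.078, MYCN -0.15, DICER1 -0.012 and TUT7 -0.10. After quantile normalization, HMGB1 was at 0.023, DROSHA 0.078 and TUT7 -0.037. With probe sets averaged, XPO5 was at -0.0016, BTRC -0.017, MYCN -0.053, TUT7 -0.093 and IRS1 0.20, and IRS1 was at 0.023 without both arrays labelled H9 EB. The LIN28A difference between lines was -0.18 (quantile, called, adjusted p = 0.0497), -0.077 (centred) and -0.067 to 0.080 with single arrays left out, and between EB lines LIN28A was at -0.14 (quantile) and -0.017 to 0.064 with single arrays left out. With averaged probe sets, undifferentiated H9 minus H1 was -0.41 for IGF2BP1 and -0.19 for HMGA1, and the EB line difference of HMGA2 was 0.039; the IGF2BP1 value was -0.10 to 0.15 with single arrays left out. The 2 arrays a group and MAS5 values near the array median limit what could be seen.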
